A study of Drosophila melanogaster with 9 samples.

Results

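The glial determination genes gcm and gcm2 and 8 further genes of glial cells were followed through the 3 temporal states of intermediate neural progenitors (INPs) of the Drosophila melanogaster larval brain. The 10 genes (gcm, gcm2, repo, loco, zyd, moody, Gli, nrv2, Eaat1 and alrm) were chosen by name and matched by FlyBase gene identifier, and all 10 were found among the 16364 genes counted. INPs are transit-amplifying cells of type II neuroblast lineages that pass from a young D+ (Dichaete) state through a middle Grh+ (grainyhead) state to an old Ey+ (eyeless) state, and 3 libraries were made from each state. All 3 groups were wild-type larvae of the third instar with UAS-cd8::tdTomato driven by erm-GAL4, kept at 29 °C after egg laying at 25 °C. They differed in the tagged factor used for sorting: D::GFP in D+ INPs, which was knocked into its own locus, and Grh::GFP in Grh+ INPs or Ey::GFP in Ey+ INPs, both carried on inserted BAC clones that add a gene copy. Each library came from 6000 to 7000 sorted cells, taken as the largest cells with the strongest tdTomato and GFP, since tdTomato fades where the driver is off in differentiating cells.

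In the fly embryo gcm acts as a switch that turns neural cells to a glial fate, and gcm2 is its paralog. Their product activates repo, a homeodomain factor found in nearly all lateral glia, and repo in turn is needed for glial effector genes such as transporters and junction proteins. Type II lineages produce glia as well as neurons. The cells were sorted as progenitors, so the levels below are those of glial genes in a sorted progenitor population. The paper reports that all sorted cells it stained were positive for Dpn, and it describes no stain for a glial marker. The part of any other cells in these levels was not tested. In such bulk libraries a change in the share of cells that express a gene and a change in RNA per cell cannot be told apart.

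The libraries held between 11266164 and 23184025 counts on genes, so that 3 counts were worth 0.129 to 0.266 RPM (counts scaled to 1000000 counts on genes). The INP markers dpn (206 to 374 RPM as state means) and ase (733 to 946 RPM) were present in all 3 states. Among the temporal and INP markers erm, opa and D were lower and grh and ey higher in Grh+ than in D+ INPs, D was lower in Ey+ than in Grh+ INPs, and erm, insc and D were lower and ey higher in Ey+ than in D+ INPs. One Ey+ library (replicate 1) stood apart by a TMM factor of 0.741, against 0.982 to 1.13 in the other 8, and 1 Grh+ library (replicate 2) by 15568 genes with a count, against 11048 to 14330 in the other 8. The library names of the D+ libraries carried another code than those of the Grh+ and Ey+ libraries, which share 1 code. What this code marks is not given in the sources used here, and it cannot be told apart from the state in any difference from D+ INPs.

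The gene gcm (FBgn0014179; Release 6 assembly, chromosome 2L, 9579498 to 9581745, minus strand, 2 exons) was low in young INPs and high in old ones. In D+ INPs the libraries had 1.47, 0.0512 and 3.91 RPM, which were 34, 1 and 79 counts. In Grh+ INPs they had 16.7, 12.1 and 9.29 RPM, and in Ey+ INPs 125, 125 and 104 RPM. No library of one state overlapped a library of another, and the order was D+, Grh+, Ey+. The D+ replicates were the least alike: the single count of replicate 2 has an exact 95% interval of 0.0013 to 0.285 RPM, which lies below the intervals of replicate 1 (1.02 to 2.05 RPM) and replicate 3 (3.10 to 4.87 RPM). These intervals cover counting error only.

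The level of gcm averaged 118 ± 11.7 RPM in Ey+ INPs and 1.81 ± 1.95 RPM in D+ INPs (SD, n = 3 each), a ratio of means of 65.2. The fitted log2 fold change of 6.17 (SE 0.83) passed the test (adjusted p = 0.00406, quasi-likelihood test of edgeR, Benjamini-Hochberg adjustment over 10193 genes). It stayed past an adjusted p of 0.05 in 17 of 17 alternative fits, with log2 fold changes of 5.64 to 7.40. The 2 steps that make up this difference were larger than the spread of the libraries but missed the threshold each. The level was 12.7 ± 3.74 RPM in Grh+ INPs against 1.81 ± 1.95 RPM in D+ INPs, with a log2 fold change of 2.64 (SE 0.74, adjusted p = 0.0649). Between Ey+ INPs (118 ± 11.7 RPM) and Grh+ INPs (12.7 ± 3.74 RPM) it was 3.53 (SE 0.72, adjusted p = 0.0979, edgeR).

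**Figure D1:**
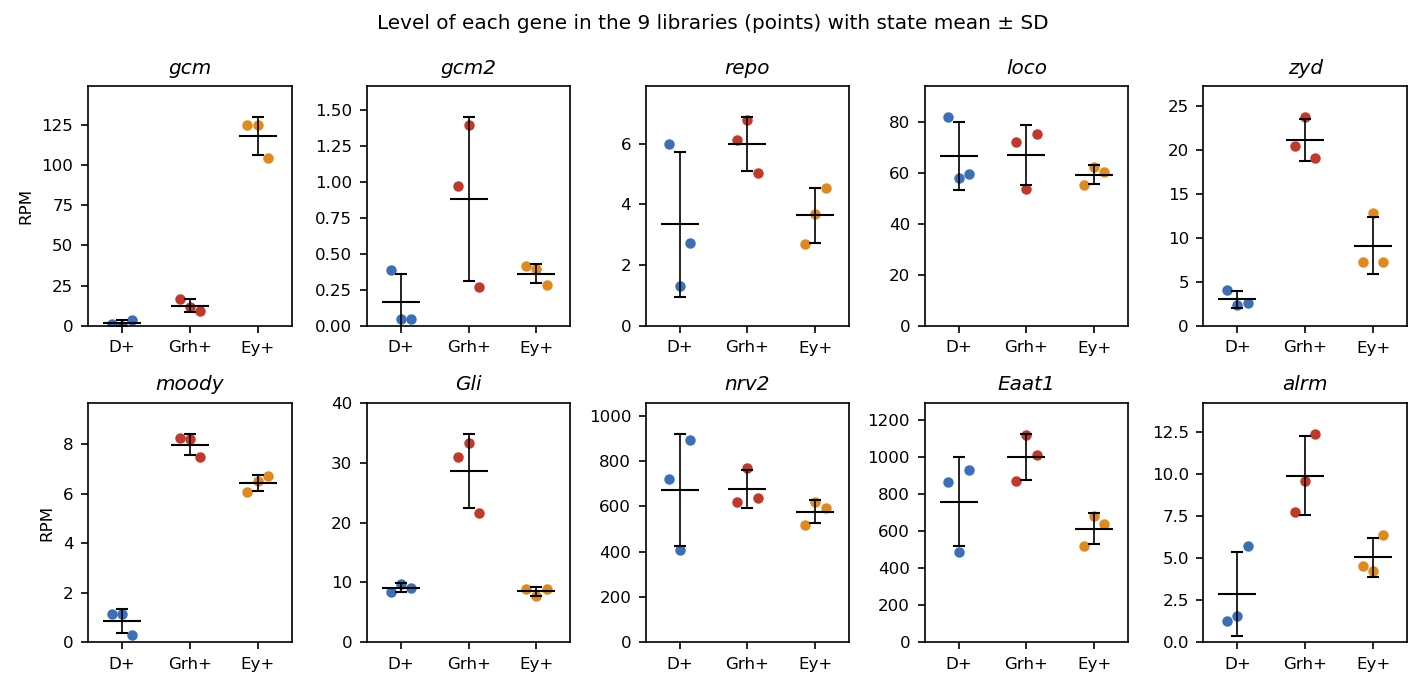
Level of each of the 10 genes in RPM (y axis, linear, from 0, own scale for each gene) in D+, Grh+ and Ey+ INPs (x axis). Points are the 3 libraries of a state and bars the mean ± SD. The gene gcm is highest in Ey+ INPs (104 to 125 RPM), zyd, moody, Gli and alrm are lowest in D+ INPs or highest in Grh+ INPs, and loco and nrv2 lie at similar levels in all states.

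The step between Grh+ and Ey+ INPs was the one between libraries that share 1 code in their names. Fitted on those 6 libraries alone, gcm had a log2 fold change of 3.51 and an adjusted p of 0.00896 (edgeR). Without D+ replicate 2, the library with 1 gcm count, it was 3.54 with an adjusted p of 0.00705, although that library is in neither state compared and enters through the shared estimate of spread. The value of the step lay between 3.22 and 3.81 in all 17 alternatives, and its adjusted p between 0.00705 and 0.373. For Grh+ against D+ INPs the log2 fold change of gcm was 2.1 (adjusted p = 0.0294, edgeR) without D+ replicate 2 and 3.86 (adjusted p = 0.0404) without D+ replicate 3. These were the lowest and the highest of its values over 17 alternatives.

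The paralog gcm2 (FBgn0019809, chromosome 2L, 9608562 to 9612706, plus strand) starts 26816 bp beyond gcm, on the other strand. It had 9, 1 and 1 counts in the D+ libraries, 11, 29 and 4 counts in the Grh+ libraries and 9, 8 and 5 counts in the Ey+ libraries. In RPM these were 0.388, 0.0512 and 0.0495 in D+ INPs, 0.976, 1.40 and 0.269 in Grh+ INPs and 0.413, 0.394 and 0.287 in Ey+ INPs. The 3 states overlapped, and gcm2 stayed under the filter on low counts, so it was the only one of the 10 genes not tested. Fitted without that filter, it had a log2 fold change of -0.88 (SE 1.32, adjusted p = 1.00, edgeR) for Ey+ against Grh+ INPs, which leaves a change of several fold either way undetectable at this depth. Per kb of exon, gcm stood at 54.3 ± 5.41 and gcm2 at 0.157 ± 0.0293 RPM per kb in Ey+ INPs (SD, n = 3 each).

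The gene repo (FBgn0011701, chromosome 3R, 18236192 to 18239602, plus strand), which encodes the pan-glial homeodomain factor, was low in every state. It had 5.996, 1.33 and 2.72 RPM in D+ INPs, 6.125, 6.80 and 5.05 RPM in Grh+ INPs and 2.71, 3.69 and 4.53 RPM in Ey+ INPs. The Ey+ libraries lay below all Grh+ libraries and within the range of the D+ libraries. Ey+ against D+ INPs gave a log2 fold change of 0.23 (SE 0.52, adjusted p = 0.818, edgeR), and Ey+ against Grh+ INPs gave -0.46 (SE 0.52, adjusted p = 1.00). The exact two-sided permutation test of the mean RPM gave p = 0.1 for Ey+ against Grh+ INPs, the smallest that 3 against 3 libraries can give. The log2 fold change for Ey+ against D+ INPs was -0.14 without D+ replicate 2 and 0.97 (adjusted p = 0.160, edgeR) without D+ replicate 1. Grh+ against D+ INPs gave 0.68 (SE 0.52, adjusted p = 0.487, edgeR), and 1.42 (adjusted p = 0.0748) without D+ replicate 1. No comparison of repo passed in any of 17 alternatives.

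Within each library gcm and repo can be set side by side per exon length. The ratio of gcm to repo was 0.337, 0.053 and 1.98 in the D+ libraries, 3.76, 2.44 and 2.54 in the Grh+ libraries and 63.5, 46.6 and 31.8 in the Ey+ libraries. The 3 states did not overlap in this ratio. Over all 9 libraries repo spanned 1.33 to 6.80 RPM and gcm 0.0512 to 125 RPM.

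**Figure D2:**
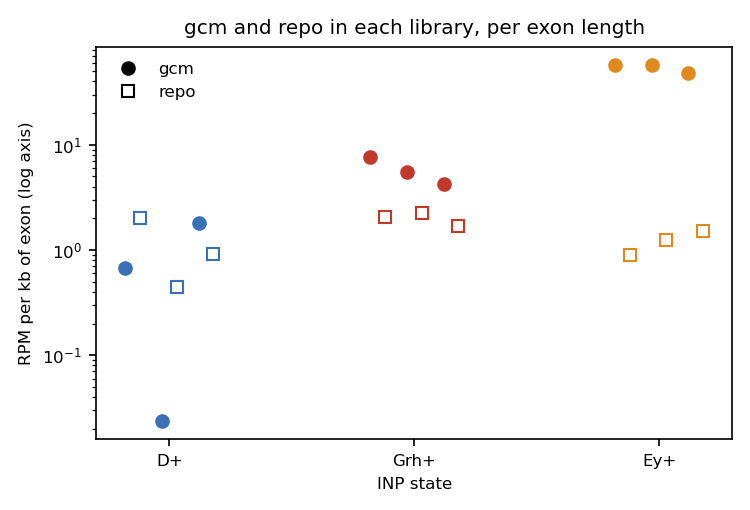
Levels of gcm (filled circles) and repo (open squares) in RPM per kb of exon (y axis, log scale) in each of the 3 libraries of D+, Grh+ and Ey+ INPs (x axis). The gcm points lie above the repo points in all Grh+ and Ey+ libraries, while in D+ INPs the 2 genes lie in 1 range apart from the library with 1 gcm count.

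Of the 9 genes tested, 2 passed the full call rule (adjusted p under 0.05, more than a 2-fold change and a mean over 10 RPM in some state) for Grh+ against D+ INPs, where 3.16% of all genes tested did. Both, zyd and Gli, were higher in Grh+ INPs. For Ey+ against Grh+ INPs 0 of 9 passed, against 0.235% of all genes in edgeR, while 3 (gcm, zyd and Gli) had an unadjusted p under 0.05, as did 8.43% of all genes, and DESeq2 called 2 (gcm and Gli) and 1.65% of all genes. For Ey+ against D+ INPs 2 of 9 passed, gcm and zyd, both higher in Ey+ INPs, where 3.95% of all genes did. By adjusted p alone moody was added in both comparisons with D+ INPs, making 3 of 9 for Grh+ (6.23% of all genes) and 3 of 9 for Ey+ (7.95%).

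The median log2 fold change of the 9 genes was 1.49 for Grh+ against D+ INPs, beside 0.00 over all genes tested. It was -0.43 for Ey+ against Grh+ INPs, beside -0.03, and 0.23 for Ey+ against D+ INPs, beside -0.02. In TMM-scaled CPM the Grh+ libraries did not overlap the D+ libraries for 5 of 9 genes (gcm, zyd, moody, Gli, alrm), all of them higher in Grh+ INPs, where 29.6% of all genes did not overlap in either direction. The Ey+ and Grh+ libraries did not overlap for 6 of 9 (19.7% of all genes), with gcm higher and repo, zyd, Gli, Eaat1 and alrm lower in Ey+ INPs. The Ey+ and D+ libraries did not overlap for 3 of 9, gcm, zyd and moody (29.2% of all genes). The comparisons share libraries and are not independent of each other.

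**Figure D3:**
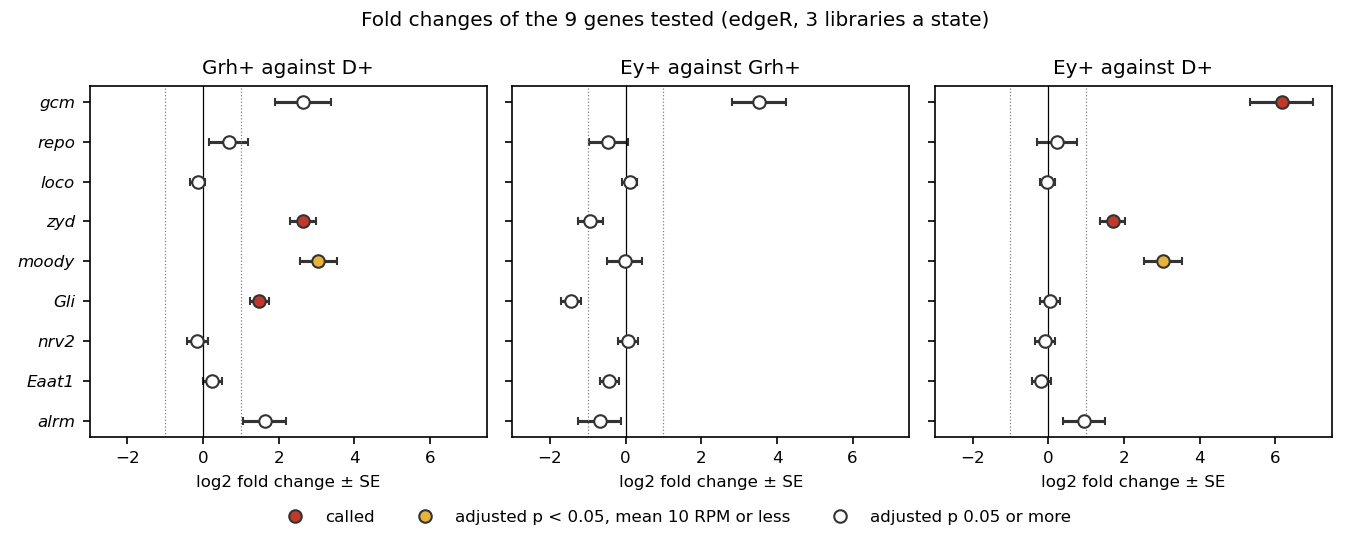
Log2 fold change with its SE (x axis) of the 9 genes tested (y axis) for Grh+ against D+, Ey+ against Grh+ and Ey+ against D+ INPs, with dotted lines at a 2-fold change. Red points passed the call rule, yellow points passed the adjusted p but not the RPM level, and open points did not pass. The zyd and Gli points are red in the first comparison, no point is filled in the second, and gcm (6.17) and zyd (1.71) are red in the third.

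Among the effector genes of cortex glia, zyd (FBgn0265767, chromosome X, 23022898 to 23035550, plus strand), a potassium-dependent sodium and calcium exchanger that limits calcium in cortex glia, had 4.10, 2.35 and 2.62 RPM in D+ INPs. It had 20.5, 23.7 and 19.1 RPM in Grh+ INPs and 7.26, 12.9 and 7.22 RPM in Ey+ INPs. Every state was separate from the others, with Grh+ INPs at the top. The gene rose in Grh+ INPs (21.1 ± 2.39 RPM) relative to D+ INPs (3.02 ± 0.939 RPM), with a log2 fold change of 2.64 (SE 0.34, adjusted p = 0.00423, edgeR). It was also higher in Ey+ INPs (9.12 ± 3.26 RPM) than in D+ INPs, with a log2 fold change of 1.71 (SE 0.33, adjusted p = 0.0162). That call was lost in the fit of those 6 libraries alone (1.69, adjusted p = 0.102), without Ey+ replicate 1 (adjusted p = 0.0515) and without Ey+ replicate 2 (adjusted p = 0.104). For Ey+ against Grh+ INPs zyd had a log2 fold change of -0.93 (SE 0.32, adjusted p = 0.409).

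Of the members that act in the barrier-forming glia, moody and Gli were higher in Grh+ than in D+ INPs, and they parted in Ey+ INPs. The member loco, which also acts there, did not differ (log2 fold change -0.14, adjusted p = 0.754, edgeR). Of 10 further barrier glia genes tested, from a list described below, 1 (vari) was called for Grh+ against D+ INPs, beside 3.16% of all genes. The gene moody (FBgn0025631, chromosome X, 2044292 to 2050120, minus strand), a G-protein-coupled receptor needed for the blood-brain barrier, had 1.16, 1.13 and 0.297 RPM in D+ INPs. It had 8.25, 8.19 and 7.47 RPM in Grh+ INPs and 6.06, 6.49 and 6.71 RPM in Ey+ INPs. Grh+ against D+ INPs gave a log2 fold change of 3.05 (SE 0.50, adjusted p = 0.0112, edgeR), and Ey+ against D+ INPs gave 3.03 (SE 0.50, adjusted p = 0.00954). It was not called in either because no state mean reached 10 RPM. Ey+ and Grh+ INPs differed by -0.02 (SE 0.46), a sign that turned when Grh+ replicate 1, Ey+ replicate 2 or Ey+ replicate 3 was left out. The adjusted p for Grh+ against D+ INPs was 0.066 without Grh+ replicate 1, 0.0521 without Grh+ replicate 3 and 0.0624 in the 6 libraries alone, and for Ey+ against D+ INPs it was 0.0621 in the 6 libraries alone.

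The gene Gli (FBgn0001987, chromosome 2L, 15756002 to 15762758, minus strand) encodes Gliotactin, a transmembrane protein of tricellular junctions. It had 8.45, 9.82 and 9.16 RPM in D+ INPs, 31.0, 33.3 and 21.5 RPM in Grh+ INPs and 8.96, 7.67 and 8.88 RPM in Ey+ INPs. All Grh+ libraries lay above the other 6, and the D+ and Ey+ libraries overlapped. Grh+ INPs (28.6 ± 6.21 RPM) exceeded D+ INPs (9.14 ± 0.685 RPM) by a log2 fold change of 1.49 (SE 0.26, adjusted p = 0.0127, edgeR), a call lost without Grh+ replicate 1 (1.41, adjusted p = 0.0893) or Grh+ replicate 2 (1.42, adjusted p = 0.0595). Ey+ INPs (8.51 ± 0.721 RPM) against Grh+ INPs (28.6 ± 6.21 RPM) gave -1.44 (SE 0.26, adjusted p = 0.0699). In the 6 libraries of these 2 states alone this was -1.47 with an adjusted p of 0.0336, and over all 17 alternatives it lay between -1.75 and -1.31 with adjusted p between 0.000183 and 0.443. Ey+ against D+ INPs gave 0.05 (SE 0.26).

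**Figure D4:**
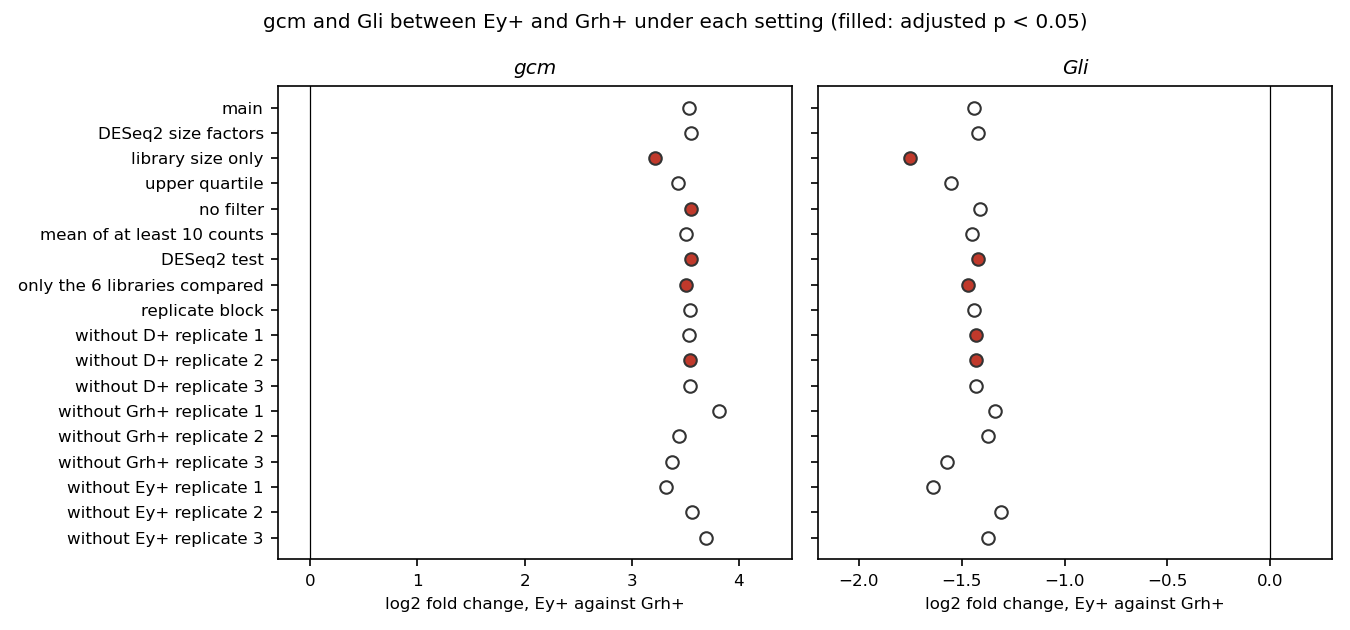
Log2 fold change (x axis) of gcm and Gli for Ey+ against Grh+ INPs under the main fit and 17 alternative settings (y axis); filled points have an adjusted p under 0.05. All gcm values lie between 3.22 and 3.81 and all Gli values between -1.75 and -1.31, and 5 alternatives pass for each gene.

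The genes nrv2 and Eaat1 were abundant in all 9 libraries. The gene nrv2 (FBgn0015777, chromosome 2L, 6789770 to 6798862, minus strand), a beta subunit of the sodium pump found in glia and at septate junctions, had 721, 406 and 894 RPM in D+ INPs, 621, 772 and 636 RPM in Grh+ INPs and 520, 618 and 593 RPM in Ey+ INPs. The D+ libraries spanned the range of all others. Its log2 fold changes were -0.15 for Grh+ against D+ INPs, 0.06 for Ey+ against Grh+ INPs and -0.09 for Ey+ against D+ INPs (SE 0.27 each), and the first 2 changed sign when libraries were scaled by size alone.

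The gene Eaat1 (FBgn0026439, chromosome 2L, 9333567 to 9341925, plus strand), the glutamate transporter of astrocyte-like and cortex glia, had 865, 486 and 931 RPM in D+ INPs. It had 874, 1121 and 1013 RPM in Grh+ INPs and 520, 684 and 638 RPM in Ey+ INPs. All Ey+ libraries were below all Grh+ libraries, and the D+ libraries overlapped the Ey+ and Grh+ ranges. Ey+ INPs (614 ± 85.1 RPM) against Grh+ INPs (1003 ± 124 RPM) gave a log2 fold change of -0.43 (SE 0.25, adjusted p = 0.774, edgeR), which did not pass in any of 17 alternatives. The lowest Eaat1 library, at 486 RPM, was far above the highest repo library, at 6.80 RPM, in genes with 3139 and 2996 bp of exon.

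The remaining effectors were the signalling regulator loco and the astrocyte marker alrm. The gene loco (FBgn0020278, chromosome 3R, 22619968 to 22639387, minus strand), an RGS protein that acts in barrier glia and also with G proteins in dividing neuroblasts, had 81.7, 57.8 and 59.7 RPM in D+ INPs, 72.0, 53.7 and 75.3 RPM in Grh+ INPs and 55.4, 62.3 and 60.2 RPM in Ey+ INPs. All 3 states overlapped, and its log2 fold changes lay between -0.14 and 0.11 with an SE of 0.20, each with a sign that depended on the scaling. The gene alrm (FBgn0039332, chromosome 3R, 25381065 to 25382781, minus strand), a leucine-rich repeat protein of astrocyte-like glia, had 1.25, 1.59 and 5.74 RPM in D+ INPs, 7.72, 9.59 and 12.4 RPM in Grh+ INPs and 4.55, 4.23 and 6.36 RPM in Ey+ INPs. Its Grh+ libraries lay above all others.

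Grh+ against D+ INPs gave alrm a log2 fold change of 1.63 (SE 0.57, adjusted p = 0.118, edgeR). Without D+ replicate 3, the highest D+ library, the log2 fold change of alrm was 2.67 (adjusted p = 0.0193) for Grh+ against D+ INPs and 1.99 (adjusted p = 0.0329) for Ey+ against D+ INPs, where the fit of all libraries gave 0.94 (adjusted p = 0.315). DESeq2 gave 1.66 (adjusted p = 0.0349) for Grh+ against D+ INPs with all libraries. No state mean of alrm reached 10 RPM, so it was not called under any of these. The library that was high for alrm among the D+ libraries was also the highest for gcm, at 3.91 RPM, and the lowest for moody, at 0.297 RPM.

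Set in order of level per kb of exon, the 10 genes kept their 2 most abundant members in every state. Eaat1 averaged 242, 319 and 196 RPM per kb and nrv2 189, 189.5 and 162 RPM per kb in D+, Grh+ and Ey+ INPs. In D+ INPs their ranges overlapped, but Eaat1 lay above nrv2 within each library (275.7, 155.0 and 296.5 against 202.1, 113.9 and 250.4 RPM per kb). The gene gcm was the seventh in D+ INPs (0.833 ± 0.898 RPM per kb, SD, n = 3), where its spread covered its neighbours repo (1.118 ± 0.799) and zyd (0.686 ± 0.213). It was the fifth in Grh+ INPs at 5.83 ± 1.72 RPM per kb, between Gli (6.40 ± 1.39) and alrm (5.77 ± 1.37), which did not differ from it beyond the spread. In Ey+ INPs gcm was the third at 54.3 ± 5.41 RPM per kb, apart from nrv2 (162 ± 14.3) above and loco (7.73 ± 0.465) below. The lowest in every state was gcm2.

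By RPM the state with the highest mean was Grh+ for 9 of the 10 genes, the exception being gcm, while 48.8% of all genes tested had their highest mean there. In TMM-scaled CPM it was Grh+ for 7 of the 10 (28.9% of all genes), since loco and nrv2 then stood highest in D+ INPs. Only gcm was highest in Ey+ INPs on both scales.

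Reads were counted without strand, and 3 of the 10 genes share exon sequence with another gene. The exons of gcm overlap those of CG31709 on the same strand over 128 bp, 5.9% of the gcm exons. CG31709 was at most 1.79 RPM in any library. For repo, 183 bp (6.1% of its exons) lie opposite CG7156, which was at 34.2 RPM in D+, 34.6 RPM in Grh+ and 25.5 RPM in Ey+ INPs as state means, above repo itself. Reads wholly in that stretch cannot be assigned to one of the 2 genes. The study gives the intersection-nonempty mode of HTSeq, which counts such a read for neither gene. The number of reads that repo lost in this way was not tested. For loco, 1032 bp (13.5%) lie opposite asRNA:CR43474, which was at most 0.246 RPM.

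Other genes of glial cells were taken from 5 lists, of regulators, barrier glia, cortex glia, astrocyte and neuropil glia and phagocytic glia, with 31 genes in the files and 28 tested. For Grh+ against D+ INPs 4 of 28 were called, all higher, with a median log2 fold change of 0.65. For Ey+ against Grh+ INPs 1 of 28 was called, higher, with a median of -0.03. For Ey+ against D+ INPs 3 of 28 were called, all higher, with a median of 0.57. These shares stand beside 3.16%, 0.235% and 3.95% of all genes. In the main fit no gene of these lists was called lower in the later state of any comparison.

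The 4 genes called in Grh+ INPs came from 4 of the lists. The septate junction scaffold vari had 23.2, 25.9 and 21.5 RPM in Grh+ INPs against 5.69, 2.46 and 6.73 RPM in D+ INPs (log2 fold change 2.09, SE 0.40, adjusted p = 0.0183, edgeR). Leaving out any single Grh+ library ended the vari call, with adjusted p of 0.0737 to 0.0887. Its level in Ey+ INPs was 4.73, 3.64 and 6.88 RPM, within the range of the D+ libraries or just above it. Ey+ against Grh+ INPs gave vari a log2 fold change of -1.93 (adjusted p = 0.0995, edgeR). In 17 alternatives this lay between -2.21 and -1.69, with an adjusted p under 0.05 in 4 of them, the lowest 0.00069 with DESeq2. The immunoglobulin protein wrapper had 17.1, 13.7 and 13.5 RPM in Grh+ INPs against 3.67, 0.256 and 0.891 RPM in D+ INPs (3.04, SE 0.76, adjusted p = 0.0458), with an adjusted p under 0.05 in 9 of 17 alternatives, and in none of those without a Grh+ library. The engulfment adaptor ced-6 averaged 32.7 ± 3.50 RPM in Grh+ INPs and 7.30 ± 3.28 RPM in D+ INPs (log2 fold change 2.01, adjusted p = 0.00786). In Ey+ INPs ced-6 averaged 25.95 ± 4.297 RPM and was also called against D+ INPs (log2 fold change 1.95, adjusted p = 0.00695, edgeR).

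The GABA transporter Gat, an astrocyte gene on chromosome 4, moved in the same order as gcm. It had 3.54, 2.30 and 2.82 RPM in D+ INPs, 9.94, 18.1 and 14.3 RPM in Grh+ INPs and 110, 102 and 79.2 RPM in Ey+ INPs, and no 2 states overlapped. Unlike gcm it passed in each step, with a log2 fold change of 3.10 (SE 0.30, adjusted p = 0.00534, edgeR) for Ey+ against Grh+ INPs and 2.13 (SE 0.31, adjusted p = 0.00786) for Grh+ against D+ INPs. It passed in all 17 alternatives of both. The lipid phosphatase wun2, of the same list, averaged 706 ± 174 RPM in Ey+ INPs and 329 ± 63.9 RPM in D+ INPs (log2 fold change 1.21, adjusted p = 0.00827), a call lost without Ey+ replicate 2 (adjusted p = 0.0621) and in the 6 libraries alone (adjusted p = 0.057). No test of a difference in fold change between gcm and Gat was made.

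**Figure D5:**
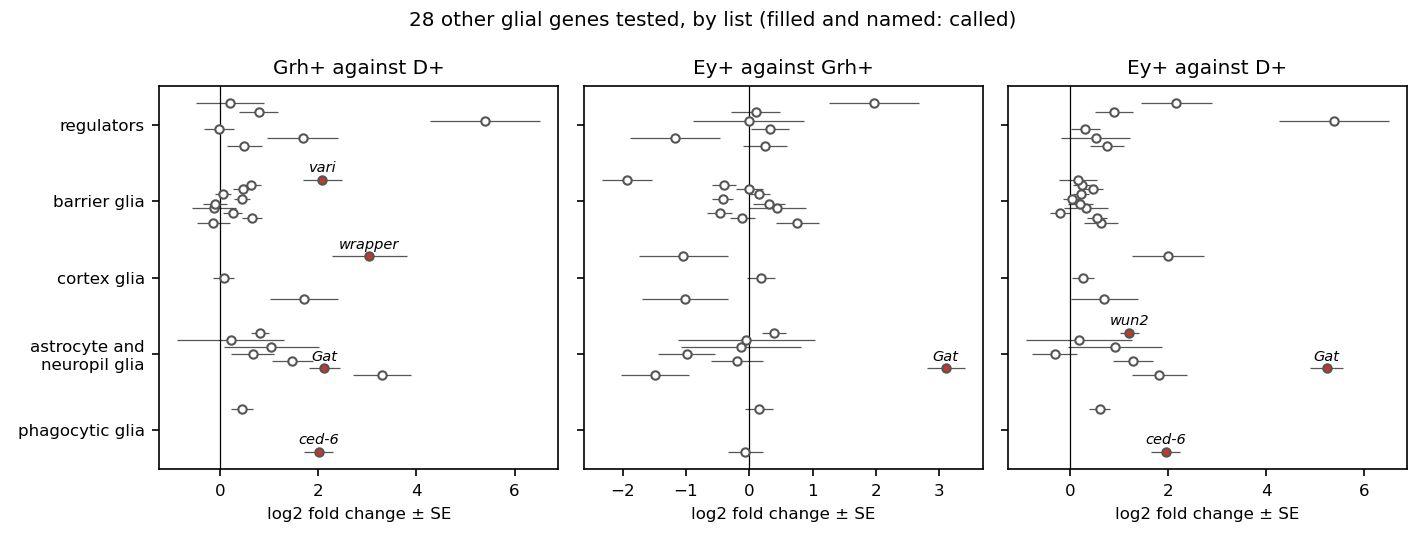
Log2 fold change with its SE (x axis) of 28 other glial genes in 5 lists (y axis) for Grh+ against D+, Ey+ against Grh+ and Ey+ against D+ INPs; filled and named points were called. Gat is called in all 3 panels, at 2.13, 3.10 and 5.24, vari, wrapper and ced-6 in the first, and wun2 and ced-6 in the third.

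Markers of other cell types were measured in the same libraries. The 10 neuron markers summed to 240 to 1106 RPM in the D+ libraries, 434 to 947 RPM in the Grh+ libraries and 712 to 3024 RPM in the Ey+ libraries, most of it elav. Of these 10, VGlut was called, higher in Grh+ than in D+ INPs. Their median log2 fold change was 1.16 for Grh+ against D+ INPs, -0.36 for Ey+ against Grh+ INPs and 0.99 for Ey+ against D+ INPs, beside 1.49, -0.43 and 0.23 for the 9 glial genes tested and 0.65, -0.03 and 0.57 for the 28 others. In Ey+ replicates 1, 2 and 3 elav was at 2704, 1144 and 649 RPM, and gcm at 125, 125 and 104 RPM or 169, 127 and 101 TMM-scaled CPM. Without Ey+ replicate 1 the log2 fold change of gcm for Ey+ against D+ INPs was 6 (adjusted p = 0.00607, edgeR). The 10 hemocyte markers, listed because gcm also acts in blood cells, summed to 74.6 to 90.6 RPM in D+, 112 to 131 RPM in Grh+ and 98.6 to 106 RPM in Ey+ libraries. Most of this was crq and ush. As state means in D+, Grh+ and Ey+ INPs, crq was at 54.1, 68.2 and 56.9 RPM and ush at 18.8, 32.1 and 38.6 RPM. Of the other blood cell markers, NimC1 was highest in D+ replicate 3 (2.57 RPM). Pxn and Col4a1 were highest in D+ replicate 2, at 5.32 and 6.09 RPM, against 4.53 and 3.66 RPM in Grh+ replicate 2. Hml (15.1 RPM, against 4.62 and 1.14 RPM in the other Grh+ libraries), He (1.83 RPM) and eater (1.98 RPM) were highest in Grh+ replicate 2. The same Grh+ library was the highest of all 9 for the neuron markers nSyb, brp, Syt1, ChAT, VGlut, VAChT, Gad1 and Rdl. The neuron markers elav and Syx1A were highest in Ey+ replicate 1. Grh+ replicate 2 was also the highest for the hemocyte markers srp and vkg and for gcm2, repo, zyd, Gli and Eaat1. Without it zyd kept its call for Grh+ against D+ INPs (log2 fold change 2.6, adjusted p = 0.0246, edgeR) and Gli did not. The markers He and eater had 0 counts in the D+ libraries, which allows up to 0.129 to 0.153 RPM by the 3-count limit. Of the 10, ush was called, higher in Ey+ than in D+ INPs. The part of these markers in the levels of gcm and the glial genes was not tested.

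The pattern of gcm over the 9 libraries was closest to that of 6 genes among 6274 ranked by Pearson's r of log2 CPM, as a description in which all genes share the libraries and the states. These were inc (r = 0.983), an adaptor of Cullin 3, the RNA-binding protein gene Rb97D (0.983), the gene FBgn0001981 (0.982), the JNK gene bsk (0.978), the dystrobrevin gene Dyb (0.978) and the histone H3.3 gene His3.3B (0.977). The gene FBgn0001981 had the pattern nearest in size, with 22.0 ± 12.3 RPM in D+, 72.0 ± 7.75 RPM in Grh+ and 354 ± 31.6 RPM in Ey+ INPs. The genes inc and bsk were called in none of the 3 comparisons. Rb97D, Dyb and FBgn0001981 were called only for Ey+ against D+ INPs (log2 fold changes 1.72, 2.18 and 4.15). His3.3B was called for Grh+ against D+ INPs (1.67) and for Ey+ against D+ INPs (2.76). As state means in D+, Grh+ and Ey+ INPs, inc was at 296, 406 and 429 RPM and bsk at 183, 254 and 247 RPM. By RPM bsk thus did not rise from Grh+ to Ey+ INPs, and a high r here does not mean a change of like size. An r over 0.9 was reached by 184 of the genes ranked. How far these r rest on D+ replicate 2, with its 1 gcm count, was not tested. No member and no gene of the glial lists was among the 6, and each of the 2 other measures of likeness shared 1 of the 6.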

How the data were processed

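RNA of sorted INPs was converted with oligo-dT primers and sequenced as unstranded 50-base single-end reads. Per the study's methods and the submitters' processing notes, reads matching rRNA were removed with BWA (0.7.12), the rest aligned with TopHat2 (2.1.1) to FlyBase r6.12, and bedtools (2.26.0) masked small RNA genes and pseudogenes. The deposited values are the counts per gene that the authors obtained with HTSeq (0.6.1), 1 table a library. Summary lines (34.7 to 53.2% of each table's total) were left out. Random octamer tags were used to mark duplicate reads in the alignments; whether marked reads were left out of the counts is not given in the sources used here.

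From the deposited counts, RPM were computed over counts on genes. Genes were tested with edgeR (4.0.16, limma 3.58.1, R 4.3.3): TMM scaling, filterByExpr, quasi-likelihood F test, all 9 libraries with 1 coefficient a state, Benjamini-Hochberg adjustment over the 10193 genes tested. Calls needed an adjusted p under 0.05, a log2 fold change beyond 1 in either direction and, in some state, a mean over 10 RPM. Fold changes are later minus earlier state, and the SE follows from the F statistic. DESeq2 (1.42.0) was an alternative, with other scalings, filters, a replicate block and leaving out each library. Intervals for single libraries are exact Clopper-Pearson (95%). Exon lengths, positions and overlaps came from Ensembl 115 (BDGP6.54), the same assembly with another annotation release, which named 16208 of the 16364 genes. The scripts were tested on simulated data.

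The members and lists were chosen with earlier results of these data known. Named were the 10 members, each gene of the other lists called in a comparison, genes sharing exons with a member, and the 6 genes with the highest r to gcm (TMM log2 CPM, prior count 2, mean over 10 RPM in at least 1 state); values of the library markers and of elav were added after they were seen. The labels do not say whether replicates came from separate dissections, so p-values measure the spread between these libraries.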

Additional observations from a re-analysis of the deposited data

How the results depend on the processing

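Between 1 and 3 of the members were called for Grh+ against D+ INPs, between 0 and 2 for Ey+ against Grh+ INPs and between 1 and 2 for Ey+ against D+ INPs when each library was left out in turn. For Ey+ against Grh+ INPs, where none was called, 2 (gcm and Gli) were called with libraries scaled by size only, with DESeq2 and with only the 6 libraries compared, and 1 (gcm) with no filter. For Ey+ against D+ INPs only 1 (gcm) was called with only the 6 libraries compared. Of the 6 genes most like gcm, 1 was shared under Spearman's rho and 1 under log2(RPM + 1). The replicate block gave 2, 0 and 2 members called, as without it. Deviations from the state means correlated at -0.257 to 0.498 between same-numbered libraries of 2 states. Between libraries of other numbers they correlated at -0.544 to 0.372. These ranges overlap, and whether the numbers pair the libraries was not tested. Over all genes the block called 214, 10 and 293 genes for Grh+ against D+, Ey+ against Grh+ and Ey+ against D+ INPs, beside 322, 24 and 403 without it. DESeq2 called 457, 168 and 600, the 6 libraries alone 183, 141 and 139, and adjusted p alone passed 635, 24 and 810. Leaving out 1 library gave 53 to 505, 3 to 72 and 107 to 657. Scaling by library size only called 275, 96 and 339 genes and moved the median log2 fold change of all genes to 0.155, -0.287 and -0.143; for Grh+ against D+ INPs 224 of its calls were higher and 51 lower, beside 176 and 146 with TMM. No filter moved the medians to 0.21, -0.189 and 0. The cause of these differences was not tested. No called fold change reversed in the 714 alternative values of the members and of 5 other glial genes; 34 lost and 23 gained an adjusted p under 0.05. Counts near 0 limit gcm2 in all states and gcm in D+ INPs.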
